A study of Mus musculus with 12 samples.

Results

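The collagen genes of the mouse were taken as all genes with a symbol of the form Col, a number, a and a number, which excludes collagen-like proteins and processing enzymes. The deposited counts held 36 of them among 24187 genes, and 35 passed the low-count filter that left 22581 genes for testing. The gene that did not pass was Col22a1, with 2 to 19 counts per liver. Another 8 collagen genes of the annotation (Col2a1, Col6a4, Col9a1, Col9a2, Col11a1, Col19a1, Col26a1 and Col28a1) were not analysed here. The 35 genes were split into 6 fibrillar collagens (types I, III and V), 8 basement membrane collagens (types IV, XV and XVIII) and 21 other collagens.

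Collagens are secreted proteins built of chains wound into a triple helix, and each gene codes for a single kind of chain. Fibrillar collagens assemble into the banded fibers that give tissue its tensile strength, type IV collagen forms the sheet-like network of basement membranes, and types XV and XVIII are proteoglycan cores that release small fragments such as endostatin. In the liver, hepatic stellate cells and portal fibroblasts are the main sources of fibrillar collagen, sinusoidal endothelial cells and stellate cells make type IV collagen, and hepatocytes are a known source of type XVIII collagen.

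Bulk RNA sequencing was performed on whole liver tissue of C57BL/6J mice. The methods give the strain as C57BL/6J in one place and as C57BL6/JOlaHsd in another. Control livers came from 3 untreated mice. The other mice received acetaminophen (APAP), whose toxic metabolite kills hepatocytes around the central vein, and then either the PBS vehicle (5 mice) or human alternatively activated macrophages (hAAMs, 4 mice), which are macrophages grown from donated blood monocytes and polarized with interleukins. The labels give an APAP dose of 350 mg/kg for these livers. The methods name doses of 350 and 500 mg/kg, and the sequencing is shown beside a severe model with 500 mg/kg. By the methods, mice of 10 to 12 weeks were fasted for 12 h before APAP, were given cells or vehicle 16 h after it, and were culled 36 h after it, while the legend of the severe model gives 32 h. The sex of the sequenced mice is not given in the sources used here, and the controls are labelled as untreated. The comparisons ask how collagen RNA differed between injured and uninjured livers, and whether hAAM treatment changed it.

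Promoters of fibrillar collagens are shown first, because the class held genes that were called higher in the injured livers (Col1a2 and Col5a1 of those shown) and genes that were not called (Col3a1 and Col5a3). Col3a1 was nonetheless higher in every injured liver than in every control, so not called does not mean unchanged. RefSeq promoter windows (GRCm38.p6) were matched to 29 of the 35 genes, and not to Col1a1, Col4a3, Col5a2, Col9a3, Col12a1 and Col14a1. Each sequence below is the stretch of the 250 bases before the RefSeq start that holds no annotated exon, on the strand of the gene, from 5′ to 3′. Capitals mark matches, on either strand, to CCAAT (the CCAAT box), TATAAA (the TATA box), GGGCGG (the GC box), TGANTCA (the AP-1 motif) and CAGACA (a motif bound by SMAD factors). Col1a2 lies at chr6:4505370-4505492 on the + strand, where the RefSeq start is 804 bases downstream of the GENCODE gene start. Col3a1 lies at chr1:45311288-45311537 (+), Col5a1 at chr2:27886175-27886424 (+) and Col5a3 at chr9:20815068-20815317 (−).
Col1a2: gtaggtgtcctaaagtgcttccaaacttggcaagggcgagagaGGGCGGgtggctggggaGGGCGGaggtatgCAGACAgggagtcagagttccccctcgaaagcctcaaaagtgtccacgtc
Col3a1: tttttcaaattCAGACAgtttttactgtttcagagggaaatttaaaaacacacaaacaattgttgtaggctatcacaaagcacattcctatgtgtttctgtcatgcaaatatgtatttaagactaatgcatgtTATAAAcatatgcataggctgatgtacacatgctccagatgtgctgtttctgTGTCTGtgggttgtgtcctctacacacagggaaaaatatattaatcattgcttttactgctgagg
Col5a1: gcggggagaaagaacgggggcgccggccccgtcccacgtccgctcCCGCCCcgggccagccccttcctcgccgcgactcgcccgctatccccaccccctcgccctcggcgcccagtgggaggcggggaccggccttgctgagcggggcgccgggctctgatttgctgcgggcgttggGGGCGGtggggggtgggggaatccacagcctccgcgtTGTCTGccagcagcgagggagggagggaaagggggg
Col5a3: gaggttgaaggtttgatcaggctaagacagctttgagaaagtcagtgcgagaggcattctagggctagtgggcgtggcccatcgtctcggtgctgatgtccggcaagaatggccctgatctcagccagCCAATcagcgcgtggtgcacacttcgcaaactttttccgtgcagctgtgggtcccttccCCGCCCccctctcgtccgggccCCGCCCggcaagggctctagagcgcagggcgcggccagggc

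In the full window of 250 bases, CAGACA matched Col1a2 once, Col3a1 at 2 positions, Col5a1 once and Col5a3 not at all, and 7 of the 29 collagens and 17.1% of all 32851 mouse promoters held it. GGGCGG had 2 matches each in Col1a2, Col5a1 and Col5a3, and was present in 18 of the 29 collagens and in 32.7% of all promoters. CCAAT was present in 10 of the 29 collagens, including Col1a2 and Col5a3, and in 33.8% of all promoters. TATAAA was present in 5 of the 29 (Col3a1, Col10a1, Col11a2, Col13a1 and Col17a1) and in 12.4% of all promoters. TGANTCA was present in Col6a1 alone of the 29 and in 6.75% of all promoters. These are matches of letters in a window, not measured binding.

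The genes of the main type IV chains, Col4a1 and Col4a2, are arranged head to head on chromosome 8. Their annotated 5′ ends share the 22 bases chr8:11312805-11312826, shown on the + strand because both genes start within it and are transcribed away in opposite directions. They hold GGGCGG once, marked in capitals.
Col4a1 and Col4a2: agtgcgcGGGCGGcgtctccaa

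Between 47391650 and 74056505 counts were assigned to genes in each liver, and counts per liver ranged from 3597 to 23423 for Col4a1 and from 7 to 184 for the scarce Col25a1. CPM are counts divided by the library total and multiplied by 1000000, with the total scaled by a TMM factor. Hepatocyte markers were abundant in all 12 libraries, where the 8 markers (among them Alb, Ttr and Apoa1) summed to between 81777 and 124950 CPM. The libraries of hAAM replicate 4 and vehicle replicate 3, which carry different labels, differed by 1.2 times the spread of counting noise, whereas the next closest pair differed by 2.38 times. Both libraries were kept in their groups and fitted as separate livers, which cannot be checked here. The counts of collagens called are also given without them. Without the TMM factors the log2 fold changes against control had a median over all genes of 0.36 for vehicle and 0.32 for hAAM, beside 0.01 and 0.02 with them. Changes are therefore relative to the other genes of the same liver. Nothing in the labels ties the livers to litters or days, and the p-values set differences between groups against the spread between these livers.

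By level per length, the collagen RNA of the control liver was dominated by Col18a1, the core protein of type XVIII collagen and precursor of endostatin. Its level was 187 ± 15.7 CPM per kb of exon (SD, n = 3), which was 71.0% of the summed collagen level. Col4a1 followed at 12.1 ± 2.92 CPM per kb, and then Col14a1, a fibril-associated collagen, at 10.5 ± 1.88. Col5a3, Col3a1 and Col4a2 came next at 8.40, 7.14 and 7.11 CPM per kb, and Col1a1 was 7th at 5.35. The control ranges of Col4a1 and Col14a1 overlapped, as did those of Col14a1 and Col5a3 and those of Col3a1, Col4a2 and Col1a1, so the order among these neighbors lies within the spread of the livers. The lowest of the 35 was Col4a6 at 0.0425 CPM per kb. In the vehicle livers the order of the highest genes was Col18a1 (127 CPM per kb), Col4a1 (34.7), Col1a1 (28.5), Col4a2 (22.1) and Col3a1 (18.5), and in the hAAM livers Col1a1 (33.3) ranked above Col4a1 (29.3), although the ranges of both genes overlapped in the vehicle and in the hAAM livers. Lengths are the union of all annotated exons. This union is 12426 bases for Col1a2 and 6563 for Col1a1, so the level per kb of Col1a2 is the lower of the pair partly by construction.

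Livers injured with APAP held more RNA of the type I and type V fibrillar collagens except Col5a3, of the type IV chains Col4a2 and Col4a5, and of Col6a3 and Col12a1, and less Col20a1, in both treatments. With vehicle, Col4a1 was also called higher and Col18a1 and Col25a1 lower. In the vehicle livers 9 of the 35 collagens rose and 3 fell against control (edgeR quasi-likelihood test, Benjamini-Hochberg false discovery rate (FDR) under 0.05), which is 34.3% of the family beside 29.8% of all genes tested. By direction, 15% of all genes were called higher and 14.8% lower. In the hAAM livers 8 collagens rose and 1 fell, 25.7% of the family beside 20.7% of all genes, of which 10.7% were called higher and 9.96% lower. The collagens as a family were thus called at a rate near the background. Of the 6 fibrillar collagens 4 rose in each comparison, with a median log2 fold change of 1.89 with vehicle and 1.95 with hAAM. Of the 8 basement membrane collagens 3 rose and 1 fell with vehicle, and 2 rose with hAAM, with medians of 0.10 and 0.06. Of the 21 other collagens 2 rose and 2 fell with vehicle, and 2 rose and 1 fell with hAAM, with medians of −0.01 and −0.06. The medians of all 22581 genes were 0.01 and 0.02. In bulk tissue, fewer cells of a type and less RNA per cell cannot be told apart. Both comparisons use the same control livers and are not independent of each other. The calls of rises rested on control replicate 3, the liver with the lowest fibrillar collagens. Without it, edgeR called 0 collagens higher with vehicle and 0 with hAAM, beside 9.64% and 4.82% of all genes. Some rises were lost in no other setting, and their FDR values there lay just above the threshold. With vehicle these were 0.0525 for Col4a2, 0.055 for Col5a1, 0.0578 for Col1a1 and 0.0586 for Col5a2, and with hAAM 0.0636 for Col1a1. In that fit 13 and 10 of the 35 collagens had an unadjusted p below the threshold of 0.05, beside 35.3% and 28.9% of all genes, so these counts were near the background. The fibrillar median without it was 1.64 with vehicle and 1.67 with hAAM, and the log2 difference of Col1a1 was 2.06 and 2.28. With all livers 15 collagens had such a p in each comparison, beside 41.8% of all genes with vehicle and 35.2% with hAAM. DESeq2 called 12 and 10 collagens higher, beside 17.1% and 13.6% of all genes. Without both near-identical libraries, 12 of the 35 were called higher with vehicle and 10 with hAAM, beside 16% and 11.1% of all genes.

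Other single livers also decided calls. Without control replicate 2, the rises of Col1a2, Col4a1, Col6a3 and Col12a1 and the fall of Col20a1 with vehicle were lost, and 5 of the 35 collagens were called higher, beside 11.3% of all genes. The rise of Col6a3 with vehicle was further lost without control replicate 1, vehicle replicate 1 or vehicle replicate 4. With hAAM, 3 collagens were called higher without control replicate 2, beside 7.28% of all genes, and 5 without control replicate 1, beside 6.57%. Without hAAM replicate 1 or hAAM replicate 2, only Col1a1 and Col4a5 of the collagens were called higher with hAAM, beside 6.24% and 6.66% of all genes. The share of all genes called higher was thus also lower in each of these fits than with all livers.

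**Figure D1:**
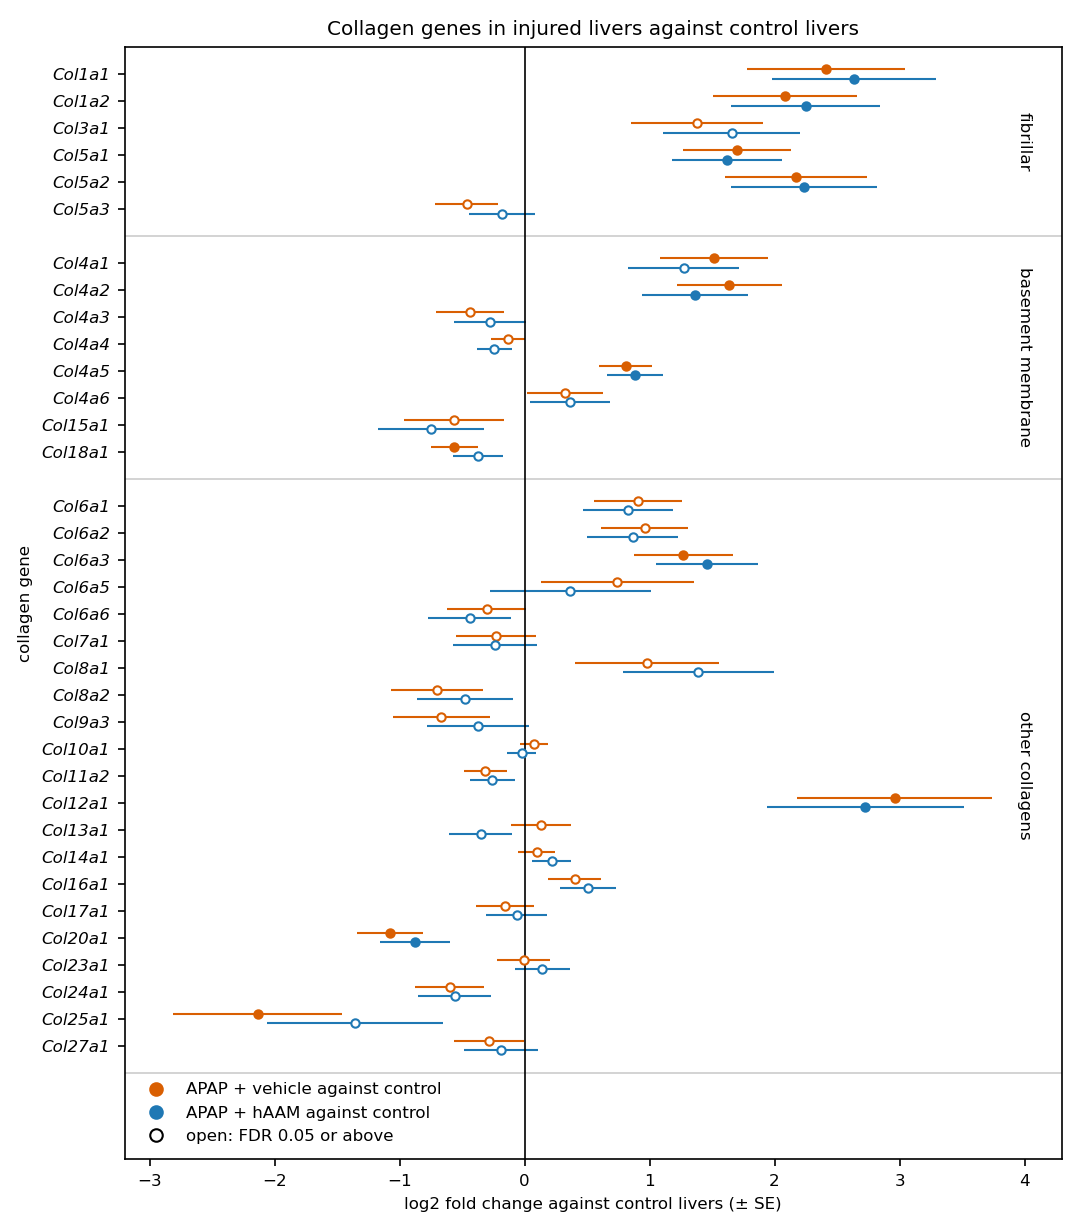
Log2 fold change of each of the 35 collagen genes against control livers (x axis, with bars of 1 standard error) for APAP with vehicle and APAP with hAAM, grouped by class. Filled points passed FDR 0.05 and open points did not. In both comparisons the fibrillar genes except Col5a3 lie between 1.38 and 2.64, while the other collagens spread from −2.14 to 2.96 with vehicle and from −1.36 to 2.73 with hAAM.

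Type I collagen is the main fibrillar collagen of scars and is made of 2 chains of Col1a1 and 1 of Col1a2. Col1a1 (ENSMUSG00000001506, chr11:94936224-94953042, +) was measured at 50.2, 39.7 and 15.5 CPM in the control livers, at 271, 127, 97.1, 312 and 128 CPM in vehicle replicates 1 to 5, and at 388, 307, 82.8 and 95.6 CPM in hAAM replicates 1 to 4. All 9 injured livers were above all 3 controls, and within each injured group the livers fell into higher and lower ones, with vehicle replicates 1 and 4 and hAAM replicates 1 and 2 on top. Col1a1 rose 5.32-fold with vehicle (log2 2.41 ± 0.63 SE, FDR = 0.0142) and 6.22-fold with hAAM (log2 2.64 ± 0.65, FDR = 0.0160). Col1a2 (ENSMUSG00000029661, chr6:4504814-4541544, +) was at 43.2, 31.9 and 15.6 CPM in control, at 190, 94.1, 67.8, 204 and 84.5 CPM with vehicle, and at 244, 204, 61.2 and 65.9 CPM with hAAM. It was highest in the same 4 livers as Col1a1, its groups did not overlap with control, and it rose by 2.08 ± 0.58 on the log2 scale with vehicle (FDR = 0.0181) and by 2.25 ± 0.59 with hAAM (FDR = 0.0211).

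Type V collagen sits in the core of type I fibrils and sets their diameter. Col5a1 (chr2:27886425-28039514, +) was at 27.1, 20.4 and 15.1 CPM in control, at 78.6, 59.95, 40.4, 98.3 and 61.3 CPM with vehicle, and at 102, 89.1, 27.5 and 38.5 CPM with hAAM. The lowest hAAM liver, replicate 3, was only just above the highest control. Col5a1 rose by 1.70 ± 0.43 with vehicle (FDR = 0.0120) and by 1.62 ± 0.44 with hAAM (FDR = 0.0239), on the log2 scale. Col5a2 (chr1:45374321-45503282, −), which codes for the other chain of the common type V molecule, was at 9.47, 9.53 and 3.58 CPM in control, at 44.3, 25.7, 15.8, 55.8 and 27.9 CPM with vehicle, and at 56.5, 53.2, 15.4 and 16.9 CPM with hAAM. It rose by 2.17 ± 0.57 with vehicle (FDR = 0.0140) and by 2.24 ± 0.58 with hAAM (FDR = 0.0200). Col5a3 (chr9:20770050-20815067, −), a type V chain of restricted distribution, was the exception in its class. It was at 71.7, 44.6 and 55.3 CPM in control, at 39.1, 50.4, 51.6, 35.0 and 31.4 CPM with vehicle, and at 35.7, 38.5, 75.7 and 52.1 CPM with hAAM. The groups overlapped, and the log2 differences were −0.46 ± 0.25 (FDR = 0.179) and −0.18 ± 0.26 (FDR = 0.664), the second of which became 0.09 with scaling by library size alone. Within the injured livers Col5a3 was low where Col5a1 and Col5a2 were high, namely in vehicle replicates 1 and 4 and hAAM replicates 1 and 2, and was also low in vehicle replicate 5.

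Type III collagen forms thinner reticular fibers together with type I. Col3a1 (ENSMUSG00000026043, chr1:45311538-45349706, +) was at 100, 78.3 and 31.3 CPM in control, at 253, 110, 108, 289 and 151 CPM with vehicle, and at 359, 307, 110 and 107 CPM with hAAM. All injured livers were above the controls, but vehicle replicates 2 and 3 and hAAM replicates 3 and 4 exceeded control replicate 1 by little. The log2 differences were 1.38 ± 0.53 with vehicle (FDR = 0.0678) and 1.66 ± 0.55 with hAAM (FDR = 0.0512), both above the threshold. With DESeq2, Col3a1 passed it in both comparisons.

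The fibrillar genes did not keep their proportions. The ratio of Col3a1 to Col1a1 CPM within a liver was 2.00, 1.97 and 2.03 in the control livers, and 0.931, 0.863, 1.11, 0.924 and 1.18 in the vehicle livers. In the hAAM livers it was 0.924, 1.00, 1.33 and 1.12. The control values lay between 1.97 and 2.03 although control replicate 3 held less of both genes, and all injured livers were lower, including those in which Col1a1 was only moderately raised. The ratio of Col1a1 to Col1a2 was 0.989 to 1.24 in control, 1.35 to 1.53 with vehicle and 1.35 to 1.59 with hAAM, without overlap with control. By contrast the ratio of Col4a1 to Col4a2 stayed between 1.70 and 1.98 in all 12 livers. These ratios were chosen after the values were seen and are given without a test. They compare counts of genes of different length and are not ratios of molecules.

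**Figure D2:**
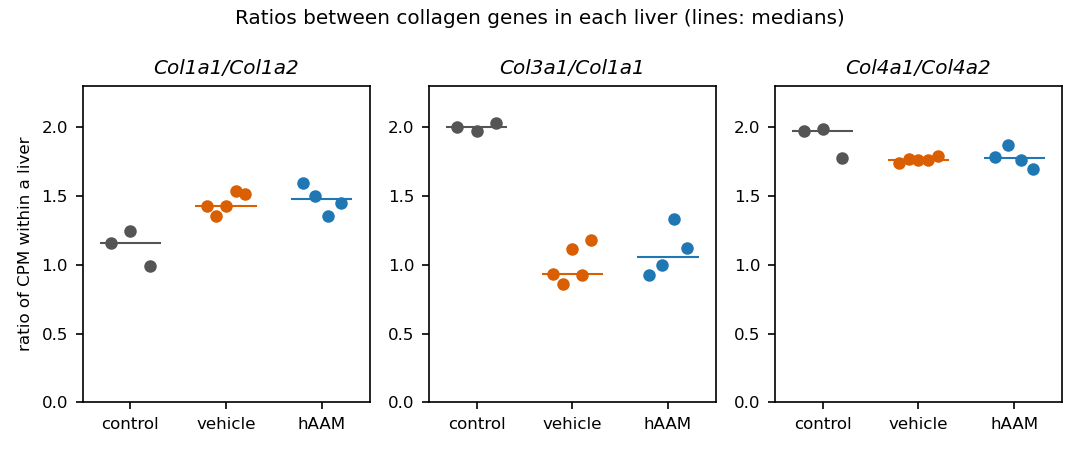
Ratio of CPM between pairs of collagen genes within each liver (y axis) for control, vehicle and hAAM livers, with 1 point per liver and lines at the medians. The Col3a1 to Col1a1 ratio is near 2.00 in the 3 control livers and at most 1.33 in the injured livers, while the Col4a1 to Col4a2 ratio stays between 1.70 and 1.98.

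Type IV collagen is the network collagen of basement membranes, and the molecule of 2 Col4a1 chains and 1 Col4a2 chain is its common form. Col4a1 (ENSMUSG00000031502, chr8:11198423-11312826, −) was at 114, 86.0 and 71.1 CPM in control, at 259, 258, 142, 346 and 289 CPM with vehicle, and at 325, 331, 84.0 and 134 CPM with hAAM. All vehicle livers exceeded the controls, whereas hAAM replicate 3 lay within the control range. Col4a1 rose by 1.52 ± 0.43 with vehicle (FDR = 0.0209), and its log2 difference of 1.27 ± 0.44 with hAAM was not called (FDR = 0.0601). With hAAM it was called in 5 of 21 alternative settings, DESeq2 among them. Col4a2 (ENSMUSG00000031503, chr8:11312805-11449287, +) was at 57.8, 43.3 and 40.0 CPM in control, at 148, 146, 80.7, 196 and 162 CPM with vehicle, and at 182, 177, 47.6 and 78.8 CPM with hAAM. hAAM replicate 3 was again within the control range, and Col4a2 rose by 1.64 ± 0.42 with vehicle (FDR = 0.0123) and by 1.37 ± 0.42 with hAAM (FDR = 0.0398). The call with hAAM was lost in 9 of 21 alternative settings, including each one that left out a control liver, vehicle replicate 1 or 2, or hAAM replicate 1 or 2. That Col4a1 was called in a single comparison does not show a difference between treatments, and the direct comparison is given below.

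The minor type IV chains are known from kidney and other specialized membranes, and were scarce here. Col4a5 (chrX:141475385-141689234, +) was at 2.92, 2.78 and 1.74 CPM in control, at 3.79, 3.39, 5.71, 5.29 and 3.58 CPM with vehicle, and at 4.11, 4.50, 4.71 and 4.98 CPM with hAAM. All injured livers were above the controls. Vehicle replicate 3 and hAAM replicates 3 and 4, which were low in Col4a1, were among the highest in Col4a5. So was vehicle replicate 4, the highest liver in Col4a1, and vehicle replicate 3 and hAAM replicate 4 are the near-identical libraries. Col4a5 rose by 0.81 ± 0.21 with vehicle (FDR = 0.0149) and by 0.88 ± 0.22 with hAAM (FDR = 0.0174). Col4a6, which lies head to head with Col4a5 on the X chromosome, stayed at 0.237 to 0.704 CPM in all livers, with log2 differences of 0.32 (FDR = 0.450) and 0.37 (FDR = 0.445). Col4a3 ranged from 0.887 to 2.23 CPM and Col4a4 from 1.22 to 1.81 CPM, with differences of −0.44 and −0.13 with vehicle and −0.27 and −0.24 with hAAM, none of them called. Scaled by library size alone, these turned positive for Col4a4 in both comparisons and for Col4a3 with hAAM. Col4a3 shares 563 exon bases with the opposite gene C430014B12Rik, and the use of strand in the counting is not given in the sources used here.

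Col18a1 (ENSMUSG00000001435, chr10:77052178-77166548, −) was at 1416, 1197 and 1328 CPM in control, at 833, 1068, 1072, 756 and 721 CPM with vehicle, and at 846, 807, 1342 and 1067 CPM with hAAM. All vehicle livers were below the controls, while hAAM replicate 3 lay inside the control range. Col18a1 fell by 0.56 ± 0.19 on the log2 scale with vehicle (FDR = 0.0410) and differed by −0.37 ± 0.20 with hAAM (FDR = 0.204). The fall with vehicle was lost in 9 of 21 alternative settings, with FDR from 0.0168 to 0.226 over all of them, among them scaling by library size alone, each setting without a control liver and those without vehicle replicate 1, 4 or 5 or hAAM replicate 4. Across the injured livers Col18a1 was lowest in vehicle replicates 5, 4 and 1 and hAAM replicates 2 and 1, 4 of which were the highest in Col1a1. The promoter table holds 2 promoters for Col18a1, and counts per gene do not separate their transcripts. Col15a1 (chr4:47208161-47313167, +), the related core protein found between basement membranes and fibrillar matrix, was at 14.6, 25.1 and 36.8 CPM in control, at 10.3 to 23.03 CPM with vehicle (median 16.4) and at 7.17 to 25.6 CPM with hAAM. Its groups overlapped, with differences of −0.56 ± 0.40 (FDR = 0.313) and −0.75 ± 0.42 (FDR = 0.231).

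**Figure D3:**
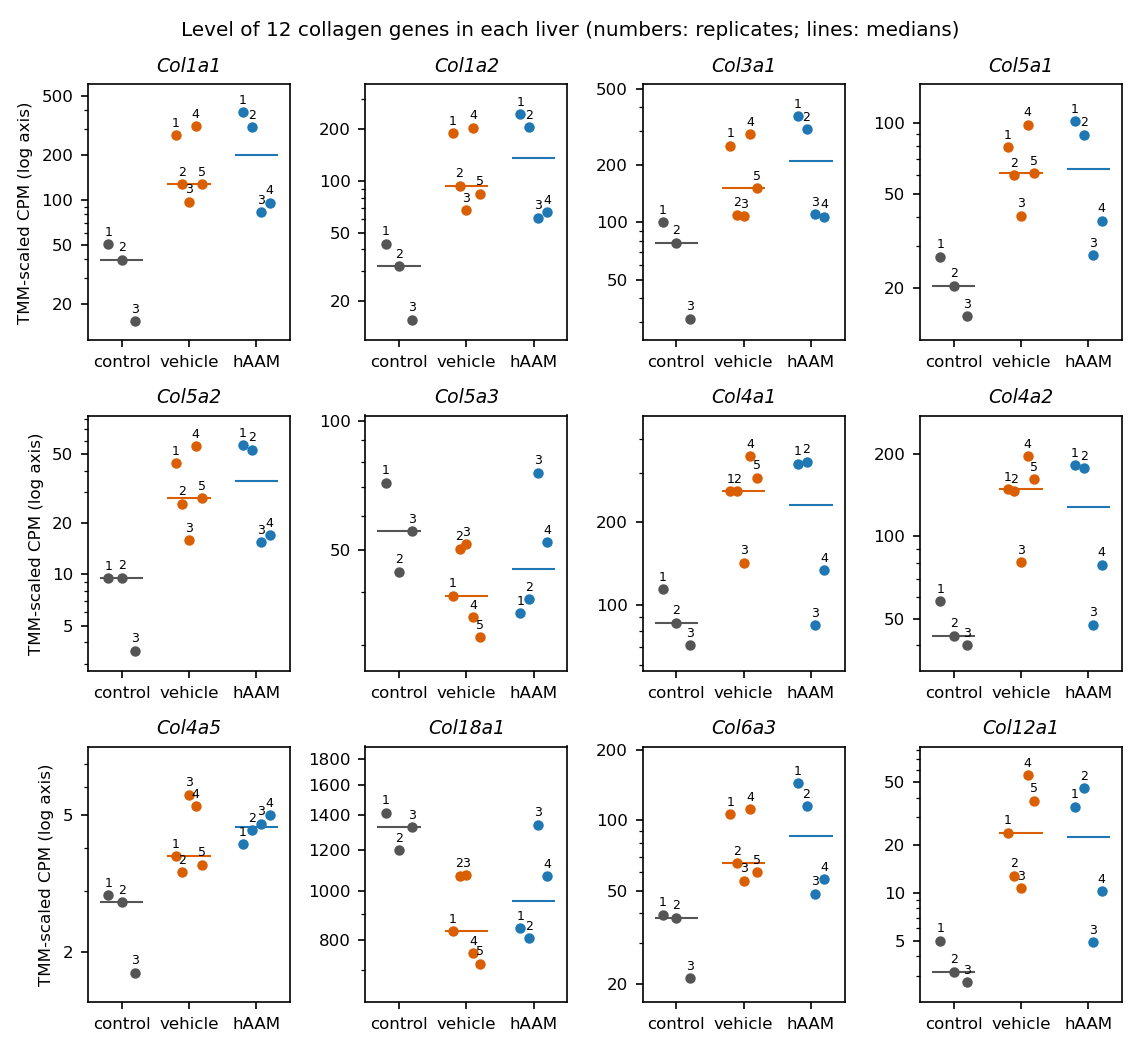
TMM-scaled CPM (log axis, its range set for each gene) of 12 collagen genes in the 3 control, 5 vehicle and 4 hAAM livers, with replicate numbers beside the points and lines at the medians. Vehicle replicates 1 and 4 and hAAM replicates 1 and 2 are the highest livers for Col1a1, Col1a2, Col3a1, Col5a1 and Col5a2, and hAAM replicate 3 lies inside the control range for Col4a1 and Col18a1.

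Among the other collagens the largest rise was that of Col12a1 (chr9:79598991-79718831, −), a fibril-associated collagen that links type I fibrils to other matrix. It was at 5.01, 3.19 and 2.73 CPM in control, at 24.1, 12.9, 10.8, 55.7 and 38.3 CPM with vehicle, and at 35.1, 46.1, 4.88 and 10.2 CPM with hAAM. All vehicle livers were above the controls, and hAAM replicate 3 was within their range. Col12a1 rose by 2.96 ± 0.78 with vehicle (FDR = 0.0144) and by 2.73 ± 0.79 with hAAM (FDR = 0.0299). Col6a3 (chr1:90765923-90843971, −), a chain of the beaded filaments of type VI collagen, was at 39.5, 38.4 and 21.1 CPM in control, at 106, 65.7, 55.2, 111 and 60.1 CPM with vehicle, and at 144, 115, 48.6 and 56.1 CPM with hAAM. All injured livers were above the controls, and Col6a3 rose by 1.27 ± 0.39 with vehicle (FDR = 0.0291) and by 1.46 ± 0.41 with hAAM (FDR = 0.0262). Its partner chain Col6a1 (chr10:76708792-76726168, −) ranged from 9.46 to 16.1 CPM in control, from 15.2 to 36.04 CPM with vehicle and from 15.5 to 33.5 CPM with hAAM, with uncalled differences of 0.91 (FDR = 0.0690) and 0.83 (FDR = 0.125). Of 21 alternative settings, 4 called Col6a1 with vehicle, DESeq2 among them, and 1 with hAAM, scaling by library size alone.

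Col20a1 (chr2:180986535-181018363, +), a fibril-associated collagen of low abundance, was at 3.05, 4.86 and 2.55 CPM in control, at 1.74, 2.05, 2.15, 1.198 and 1.18 CPM with vehicle, and at 1.34, 1.91, 2.32 and 2.05 CPM with hAAM. All injured livers were below the controls, and it fell by 1.07 ± 0.26 with vehicle (FDR = 0.0106) and by 0.87 ± 0.28 with hAAM (FDR = 0.0449). It shares 79 of its 5142 exon bases on the same strand with the gene BX649560.1. That gene had 3885 counts over the 12 livers beside 1493 for Col20a1. How reads in the shared bases were counted is not given in the sources used here. The call with hAAM was lost in 11 of 21 alternative settings, with FDR from 0.0169 to 0.206 over all of them, among them those without control replicate 1 or 2, vehicle replicate 1 or 2, or hAAM replicate 1, 2 or 4. Col25a1 (chr3:130131501-130599877, +), a transmembrane collagen, was at 0.991, 2.89 and 2.55 CPM in control, at 0.118 to 1.06 CPM with vehicle and at 0.130 to 1.86 CPM with hAAM. It fell by 2.14 ± 0.68 with vehicle (FDR = 0.0326) with groups that overlapped, and the difference with hAAM was −1.36 ± 0.70 (FDR = 0.189). The call with vehicle was lost in 7 of 20 alternative settings, among them those without control replicate 2 or 3 or any vehicle liver but replicate 3. The abundant Col14a1 was not called (log2 differences of 0.10 and 0.22), nor was Col27a1, with −0.28 and −0.19, which turned to 0.06 and 0.15 with scaling by library size alone. The remaining 14 collagens of this class had FDR values of at least 0.0568 with vehicle and 0.110 with hAAM, the lowest in both belonging to Col6a2.

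Counted by separation of the livers, 10 collagens were higher in every vehicle liver than in every control and 2 were lower, beside 17.5% and 17.3% of all genes. With hAAM 7 were higher and 3 lower in every liver, beside 14.3% and 14.2% of all genes. The 10 were the 9 called genes and Col3a1, and the 2 were Col18a1 and Col20a1. The 3 lower with hAAM were Col20a1 and the scarce Col11a2 and Col24a1, which are named here after their values were seen and were not called. Scaled by library size alone, the fitted difference of Col11a2 turned positive in both comparisons. With hAAM, Col4a1, Col4a2 and Col12a1 no longer separated from control, in each case through hAAM replicate 3.

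In the direct comparison of hAAM with vehicle, edgeR called 0 of the 35 collagens, and 0% of all genes. None of the 35 had an unadjusted p below the threshold, beside 1133 of all 22581 genes. DESeq2 called 0 collagens and 1 gene in all, and 1 collagen had an unadjusted p below the threshold, beside 5.33% of all genes. Without the near-identical libraries, which stand in different treatments, edgeR called 0 collagens and 0% of all genes, and 1 collagen had an unadjusted p below the threshold, beside 6.81% of all genes. The lowest FDR of a collagen was then 0.729. The log2 differences of the collagens ranged from −0.48 for Col13a1 to 0.78 for Col25a1, and the class medians were 0.20 for fibrillar, −0.03 for basement membrane and 0.09 for other collagens. No collagen separated the hAAM livers from the vehicle livers, beside 0.709% of all genes that were higher and 0.691% that were lower in every hAAM liver. The intervals of the differences, taken as 2 standard errors on either side, ran from −0.82 to 1.26 for Col1a1, from −0.79 to 1.13 for Col1a2, from −0.64 to 1.195 for Col3a1, from −0.997 to 0.51 for Col4a1, from −0.99 to 0.45 for Col4a2 and from −0.16 to 0.54 for Col18a1. Differences within these intervals are compatible with the data. For Col1a1 the spread within a treatment was larger than the difference between treatments. Its level in the highest vehicle liver was 3.22 times that in the lowest, and with hAAM this ratio was 4.69.

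As a summed level per length, the fibrillar collagens took 9.92% ± 2.77 of collagen RNA in the control livers (SD, n = 3), 24.5% ± 7.39 in the vehicle livers (n = 5) and 25.6% ± 10.5 in the hAAM livers (n = 4). Per liver the fibrillar sum was 36.1, 26.5 and 17.1 CPM per kb in control, 102, 55.3, 45.2, 116 and 56.4 with vehicle, and 138, 116, 44.7 and 44.7 with hAAM, so that all injured livers exceeded all controls. The type IV sum was 24.8, 18.9 and 16.1 CPM per kb in control, 57.9, 57.4, 32.5, 77.1 and 64.0 with vehicle, and 71.9, 72.1, 19.5 and 30.9 with hAAM, of which hAAM replicate 3 lay within the control range. Col18a1 went from 71.0% ± 4.12 of collagen RNA in control to 43.4% ± 11.2 with vehicle and 47.7% ± 18.3 with hAAM. The sum over the whole basement membrane class was 211 ± 17.8 CPM per kb in control, 187 ± 15.6 with vehicle and 196 ± 11.8 with hAAM, since lower Col18a1 offset higher type IV collagens. The sum of all 35 collagens was 264 ± 28.2, 298 ± 39.5 and 319 ± 58.1 CPM per kb. These sums are a description without a test.

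**Figure D4:**
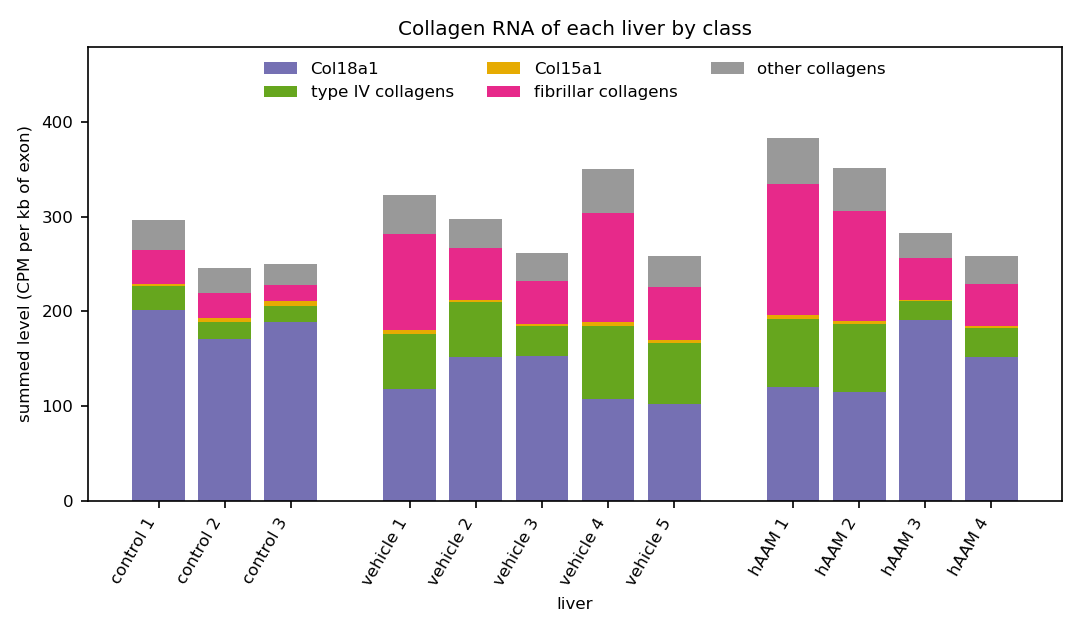
Summed level of collagen RNA per liver (y axis, CPM per kb of exon), stacked by Col18a1, type IV collagens, Col15a1, fibrillar collagens and the 21 other collagens. Col18a1 makes up 67.9% or more of the bar in each control liver and from 30.8% to 67.6% in the injured livers, and the fibrillar part is largest in hAAM replicate 1.

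The enzymes that modify and cross-link collagen chains changed in part, and the counts below stand beside 15% of all genes called higher and 14.8% lower with vehicle, and 10.7% and 9.96% with hAAM. Of 15 genes for prolyl and lysyl hydroxylation and glycosylation 5 rose and 1 fell with vehicle, and 4 rose with hAAM, with median log2 fold changes of 0.24 and 0.11. Plod2, the lysyl hydroxylase of the telopeptides, was at 1.146 to 1.79 CPM in control, at 2.46 to 6.73 with vehicle and at 2.52 to 6.17 with hAAM, and rose by 1.37 (FDR = 0.0249) and 1.502 (FDR = 0.0272) on the log2 scale. Crtap, a cofactor of prolyl 3-hydroxylation, rose by 0.92 and 0.85. P4ha3, a scarce prolyl 4-hydroxylase subunit, was at 0.0381 to 0.0472 CPM in control, 0.0860 to 0.222 with vehicle and 0.0968 to 0.208 with hAAM. It passed the low-count filter only through the injured livers. Its calls (1.77 and 1.79, FDR = 0.0126 and 0.0207), included in the counts above, are therefore no support for a rise. Of 9 genes for folding and export 3 rose and 1 fell with vehicle, and 3 rose with hAAM, with medians of 0.09 and 0.02. The chaperone Fkbp10 was at 0.988 to 1.58 CPM in control, at 3.14 to 8.81 with vehicle and at 2.38 to 9.91 with hAAM, and rose by 2.23 (FDR = 0.00671) and 2.27 (FDR = 0.0112). Creb3l1, a transcription factor that activates secretory and collagen genes, rose by 2.68 (FDR = 0.00243) and 2.295 (FDR = 0.00879). Of 13 genes for propeptide cutting and cross-linking 4 rose with vehicle and 2 with hAAM, with medians of 0.55 and 0.53. Lox, the lysyl oxidase, was at 0.277 to 1.11 CPM in control, at 2.27 to 13.9 with vehicle and at 2.33 to 11.1 with hAAM, and rose by 3.12 (FDR = 0.0127) and 3.08 (FDR = 0.0211), and Loxl1 rose by 1.55 and 1.47.

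The matrix partners of collagen were mixed. Among all genes the shares called were 15% higher and 14.8% lower with vehicle, and 10.7% higher and 9.96% lower with hAAM. Of 10 fibril partners 3 rose and 1 fell with vehicle, and 2 rose and 1 fell with hAAM, with medians of 0.26 and 0.24. Postn (periostin) and Sparc, which bind fibrillar collagen, rose by 1.75 and 1.37 with vehicle and by 1.71 and 1.28 with hAAM, whereas Tnxb, which codes for tenascin X, fell by 1.22 and by 0.89. Tnxb was at 40.5 to 61.4 CPM in control, at 14.0 to 33.3 with vehicle and at 21.5 to 34.1 with hAAM, without overlap with control. Of 15 basement membrane partners 5 rose and 2 fell with vehicle, and 3 rose and 1 fell with hAAM, with medians of 0.19 and 0.24. Nid1 (nidogen 1), which joins laminin to type IV collagen, was at 27.3 to 37.3 CPM in control, at 92.9 to 198 with vehicle and at 62.2 to 171 with hAAM, and rose by 2.19 (FDR = 0.000847) and 1.73 (FDR = 0.00492). The laminin chain Lamc1 rose by 1.05 and 0.91 and the perlecan gene Hspg2 by 0.93 and 0.72, while the laminin chain Lama3 fell by 1.149 with vehicle and by 0.70 with hAAM.

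Receptors, collagenases and signalling genes were counted in the same way, beside 15% of all genes higher and 14.8% lower with vehicle and 10.7% and 9.96% with hAAM. Of 10 tested collagen receptors 4 rose and 1 fell in each comparison, with medians of 0.47 and 0.57. The collagen-activated kinase Ddr1 rose by 1.78 and 1.53 and the inhibitory receptor Lair1 by 1.24 and 1.14, and the integrin chain Itga10 fell by 1.31 with vehicle and by 1.02 with hAAM. Of 10 collagenases and inhibitors 3 rose with vehicle and 2 with hAAM, with medians of 0.67 and 0.52. Timp1, an inhibitor of matrix metalloproteinases, was at 0.0790 to 1.09 CPM in control, at 2.83 to 11.3 with vehicle and at 2.28 to 12.1 with hAAM, and rose by 3.96 (FDR = 0.00654) and 3.91 (FDR = 0.0117). The membrane-bound collagenase Mmp14 rose by 0.71 with vehicle and was not called with hAAM (0.47, FDR = 0.0583). Of 16 genes of the TGF-β and PDGF pathways and their targets 10 rose and 2 fell with vehicle, and 8 rose and 2 fell with hAAM, with medians of 1.00 and 0.93. This list holds Smad7, the inhibitory SMAD that opposes TGF-β signalling, which was among the 10 (0.94, FDR = 0.0107) and was not called with hAAM (0.57, FDR = 0.107). The connective tissue growth factor Ccn2 rose by 2.76 and 2.58, the receptor Pdgfrb by 1.37 and 1.27 and the TGF-β receptor Tgfbr2 by 1.00 and 0.92, and the growth factor Pdgfc fell by 1.40 and by 1.04. Pdgfc was at 9.95 to 10.6 CPM in control, at 3.46 to 4.298 with vehicle and at 3.91 to 6.28 with hAAM. No gene of these lists was called between hAAM and vehicle with edgeR.

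**Figure D5:**
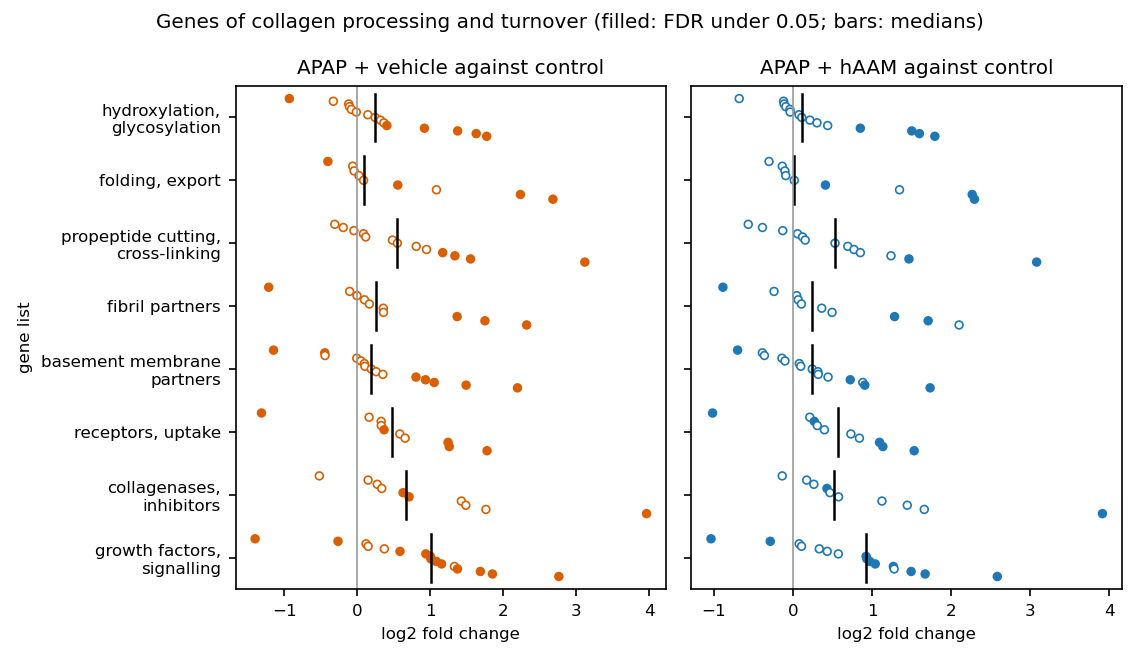
Log2 fold change against control (x axis) of the genes in 8 lists of collagen processing, partners and signalling, for vehicle (left) and hAAM (right), with 1 point per gene. Filled points passed FDR 0.05 and black bars are list medians, which lie between 0.02 and 1.00.

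The cell types that make collagen were followed by marker lists, which a bulk measurement can only sum. Their counts are to be read beside the 15% of all genes that were called higher with vehicle and the 10.7% with hAAM. The 7 myofibroblast markers (Acta2, Tagln, Cnn1, Myl9, Tpm2, Postn and Loxl1) summed to 27.8, 22.1 and 11.6 CPM in control, to 87.1, 84.7, 50.5, 117 and 73.0 CPM with vehicle, and to 130, 118, 36.02 and 50.5 CPM with hAAM, and 5 of the 7 rose in each comparison. Postn and Loxl1 also belong to the lists above. The livers with the highest myofibroblast sums were those with the highest Col1a1, and control replicate 3 was lowest in both. Acta2, the smooth muscle actin of activated stellate cells, rose by 2.84 (FDR = 0.00483) with vehicle and by 2.95 (FDR = 0.00732) with hAAM. Of 12 stellate cell markers 3 rose with vehicle and 2 with hAAM, and their sum was 293 to 356 CPM in control, 332 to 355 with vehicle and 326 to 386 with hAAM. Of 9 portal fibroblast markers Fbln2 alone rose, in both comparisons, and the sums were 10.8 to 23.7, 19.2 to 41.3 and 20.1 to 37.0 CPM. Of 5 smooth muscle markers 2 rose with vehicle and 1 with hAAM, with sums of 12.7 to 20.7, 20.8 to 38.1 and 15.5 to 42.4 CPM.

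Beside the same 15% and 10.7% of all genes called higher, and 14.8% and 9.96% called lower, 5 of 10 sinusoidal endothelial markers rose with vehicle and 3 with hAAM. Their sums were 504 to 544 CPM in control, 580 to 728 with vehicle and 536 to 719 with hAAM, with hAAM replicate 3, the lowest injured liver in Col4a1, also lowest here. None of the 8 cholangiocyte markers was called, although their sum was 64.0 to 89.8 CPM in control and reached 324 CPM in vehicle replicate 4 and 250 CPM in hAAM replicates 1 and 2, with Spp1 alone at up to 253 and 195 CPM. None of the 6 mesothelial markers was called, with sums of 5.35 to 7.74, 4.2996 to 11.5 and 5.04 to 16.7 CPM. Of 5 Kupffer cell markers Marco alone rose, with sums of 166 to 230, 195 to 306 and 198 to 282 CPM. The hepatocyte sums overlapped between all groups, with 1 of 8 markers, Hpx, falling in both comparisons. They were 81777 to 94548 CPM in vehicle replicates 1, 4 and 5 and hAAM replicates 1 and 2. In the other injured livers they were 106890 to 124950 CPM. Control replicate 3, the lowest in fibrillar collagen, was also the lowest control here, at 89362 CPM. Of 5 erythroid genes the 4 globin genes rose and Alas2 fell with vehicle, whereas with hAAM no globin gene was called (FDR from 0.0618 to 0.0699) and Alas2 fell by 1.27 (FDR = 0.00265). The sums were 135 to 240, 220 to 2025 and 226 to 733 CPM, highest in vehicle replicate 5, which was not among the highest in fibrillar collagen. No marker of these 10 lists was at 0 in any liver. The part of these cell types in the collagen differences was not tested.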

How the data were processed

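RNA sequencing counts per gene were analysed for 12 livers (3 control, 5 APAP with vehicle, 4 APAP with hAAM). The authors made rRNA-depleted directional libraries from 500 ng of total RNA and deposited raw counts per Ensembl gene. Their processing notes name cutadapt 4.6, STAR 2.7.1a, MultiQC 1.25, DESeq2 1.38.3 and GRCm38, and their methods name summarizeOverlaps for the counts. The strand setting is not given in the sources used here. The labels' protocol names 14 libraries, of which 12 samples were analysed here.

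Groups were taken from the sample labels. Genes were filtered with filterByExpr, counts were scaled with TMM factors (0.832 to 1.14), and all 12 livers were fitted in 1 model with edgeR 4.0.16 (quasi-likelihood test, R 4.3.3). Genes with a Benjamini-Hochberg FDR under 0.05 over 22581 genes were called. The biological coefficient of variation was 0.214. The fit was tested on simulated counts of 22581 genes for vehicle against control, where it called 74% of the genes given a 2-fold change and 98% of those given a 4-fold change. The 200 changed genes were drawn from those above a set mean count, and far more genes were called in the data. These shares are therefore not the power for the collagens. Col3a1, at 2.60-fold with vehicle and 3.15-fold with hAAM, was not called. Exon lengths and coordinates came from GENCODE vM21 and promoters from RefSeq. Alternatives were DESeq2 1.42.0, other scalings, filters and dispersion settings, an FDR of 0.1, sums without gene length, only the 2 groups compared, a replicate block, each liver left out, and both near-identical libraries left out.

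The collagen genes and all lists were chosen with earlier results of these data known. Named with values are all fibrillar and basement membrane collagens, other collagens called against control, the 3 most abundant of the rest, and up to 4 called genes of each list with the smallest p. Values per liver are given for the collagens with the smallest p in each class and for the main type I, III, IV and XVIII genes. Those for Col5a2, Col5a3, Col12a1 and Col25a1, the values of Smad7 and Spp1, and the ratios between genes, were added after the values were seen.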

Additional observations from a re-analysis of the deposited data

Results flagged for a closer look

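Among 70 sets of livers (35 collagens in each APAP group), 4 held a liver that stood apart from the rest of its group by Dixon's test, and chance gives about 1 in 20. No liver appears more than once. Col4a3, a minor type IV chain, was at 2.23 CPM in vehicle replicate 3 and at 0.887 to 1.14 CPM in the other vehicle livers. These rest on 60 to 115 counts per liver. hAAM replicate 4, nearly identical to vehicle replicate 3, was the highest hAAM liver for Col4a3, at 1.81 CPM. Without vehicle replicate 3, and also without both near-identical libraries, Col4a3 passed the FDR threshold as lower with vehicle than in control. Col4a6, another minor type IV chain, was at 0.704 CPM in hAAM replicate 2 and at 0.329 to 0.373 CPM in the other hAAM livers. Col9a3, a chain of the fibril-associated type IX collagen, was at 0.458 CPM in vehicle replicate 4 and at 0.209 to 0.271 CPM in the others. Col13a1, a transmembrane collagen, was at 3.04 CPM in hAAM replicate 3 and at 4.28 to 4.35 CPM in the other hAAM livers.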

How the results depend on the processing

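Against control, the fibrillar medians kept their sign under every alternative run, at 1.64 to 2.25 with vehicle and 1.60 to 2.29 with hAAM. With scaling by library size alone, 14 collagens were called higher with vehicle and 14 with hAAM, beside 38.2% and 29.0% of all genes, and 2 and 0 lower, beside 4.92% and 3.46%. The medians became 0.44 (vehicle) and 0.37 (hAAM) for basement membrane and 0.34 and 0.24 for other collagens, and the differences of 7 collagens with vehicle and 8 with hAAM, none of them called with TMM factors, turned from negative to positive. Those were Col4a4 (0.21 and 0.067), Col27a1 (0.063 and 0.15), Col7a1, Col11a2 and Col17a1 in both comparisons, Col6a6 and Col23a1 with vehicle, and Col4a3 (0.019), Col5a3 (0.094) and Col10a1 with hAAM. With only the 2 groups compared, 4 collagens were called higher and 0 lower with hAAM, beside 6.56% and 6.14% of all genes. Without both near-identical libraries, 0 were called lower with hAAM, beside 8.49% of all genes, and the median of other collagens with vehicle was 0.069. It was 0.0904 with at least 10 counts in every library. Counts here include Col22a1 where an alternative filter let it be tested.

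Leaving out 1 liver at a time, calls against control ranged from 0 to 11 higher and 0 to 4 lower with vehicle, and from 0 to 11 higher and 0 to 1 lower with hAAM. In the same fits 9.64% to 16.1% of all genes were called higher and 10.4% to 15.8% lower with vehicle, and 4.82% to 12.9% and 5.66% to 11.3% with hAAM. The median of other collagens with vehicle ranged from −0.086 to 0.077, Col14a1 from −0.028 to 0.23 and Col27a1 from −0.51 to 0.016. With hAAM, Col5a3 ranged from −0.44 to 0.019 and Col27a1 from −0.41 to 0.12. For hAAM against vehicle, the basement membrane median ranged from −0.23 to 0.039, Col1a1 from −0.21 to 0.49, Col1a2 from −0.21 to 0.42, Col3a1 from −0.057 to 0.51 and Col4a1 from −0.52 to 0.024, with no call. The cause of these changes was not tested.

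With the replicate block, 0 collagens were called lower with vehicle and 0 with hAAM, beside 9 and 6 higher, where 9.13% and 6.2% of all genes were called lower and 9.7% and 6.91% higher. The genes called higher were in part others. The block lost the calls of Col4a5 and Col12a1 in both comparisons and of Col4a2 with hAAM, and added Col3a1 in both and Col6a2 with vehicle. The median of other collagens with vehicle was −0.0678, and hAAM against vehicle gave −0.0186 for Col1a1 and −0.048 for Col1a2. Over all genes the block called 2191 higher and 2062 lower with vehicle and 1560 higher and 1399 lower with hAAM, beside 6719 and 4666 calls in all without it. Deviations of same-numbered livers correlated from −0.458 to 0.385, so the numbers were not taken to pair the livers. All comparisons with control rest on 3 control livers, and scarce collagens such as Col25a1 (7 to 184 counts per liver) rest on few counts.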
